A study of Mus musculus with 8 samples.

Results

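The mouse pre-B leukaemia lines '18-81' and 70Z/3 were set against each other over all 8 samples of the series, the 4 arrays titled '18-81' and the 4 titled 70Z/3. Each line was transfected with a synthetic duplex at 10 nM, either pre-miR-125b or the control duplex miR-Neg, medium was renewed after 8 h and total RNA was taken after 48 h. Each line therefore had 2 miR-Neg and 2 miR-125b arrays, numbered 1 and 2, from 2 independent experiments per the design text. All 8 cultures carried a duplex and the lipid reagent, and untransfected cells were not analysed here. The labels call both lines pre-B lymphoblasts from leukaemia. Each line is 1 established culture, so the p-values speak only of these lines. They measure the spread left between the cultures once line, duplex and array number are fitted, not that between independent repeats. The microRNA given to 2 cultures of each line is printed to identify the shared treatment, with its seed, bases 2 to 8, in capitals (RefSeq, GRCm38.p6, chr9:41581940-41581961 and chr16:77646279-77646300, plus strand in both places).
miR-125b-5p: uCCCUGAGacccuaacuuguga

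A pre-B cell has rearranged its immunoglobulin heavy chain and displays it with the surrogate light chain, made of Igll1 (lambda 5) and the Vpreb proteins, and with the signalling pair Cd79a and Cd79b. This pre-B receptor and the interleukin 7 receptor drive growth through Syk, Blnk, JAK kinases and STAT5, while Pax5, Ebf1 and Tcf3 hold the B-lineage programme. '18-81' is a line transformed by the Abelson leukaemia virus, whose v-Abl kinase is known to keep STAT5 active, and 70Z/3 comes from a chemically induced lymphoma and is known for making kappa light chain after lipopolysaccharide. These 3 sentences are general background, and neither v-Abl nor any protein was measured here.

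Values are log2 of the processed spot intensity minus the 75th percentile of the same array, so a level of 0 is the 75th percentile itself. Differences are '18-81' minus 70Z/3 on this log2 scale, so a negative sign marks a lower value in '18-81'. Each is given ± the standard error of the limma fit, which takes out duplex and array number. The 4 arrays of a line come from 2 independent experiments with 2 duplexes each, so they are not 4 independent repeats. Testing was limited to the 17419 genes with a probe that stood well above background throughout 1 line or both, on all 4 of its arrays. A gene could thus enter through the line where it was high, and such genes are part of the counts and list medians below. Over these, limma called 7969 genes between the lines at an adjusted p under 0.05 (45.7%): 4288 were higher in '18-81' (24.6%) and 3681 higher in 70Z/3 (21.1%). At least 2-fold differences were called for 2138 genes higher in '18-81' (12.3%) and 2155 higher in 70Z/3 (12.4%). The 4 arrays of one line lay entirely above the 4 of the other for 6492 genes (37.3%), with '18-81' above for 19.6% and 70Z/3 above for 17.6%. Arrays correlated at r between 0.972 and 0.996 within a line and between 0.831 and 0.858 across the lines, as a description over genes, and the first principal component, which held 86.2% of the variance, separated the lines. No gene passed the adjusted threshold for a line by duplex interaction in limma (0 of 17419, 0%, with 2380 at an unadjusted p under 0.05, 13.7%). With 2 arrays per line and duplex, this cannot show that the line difference is the same with both duplexes. The duplexes are pooled below, with duplex as a covariate. The lines lay in different columns of the single slide, so line and slide column cannot be told apart.

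**Figure D1:**
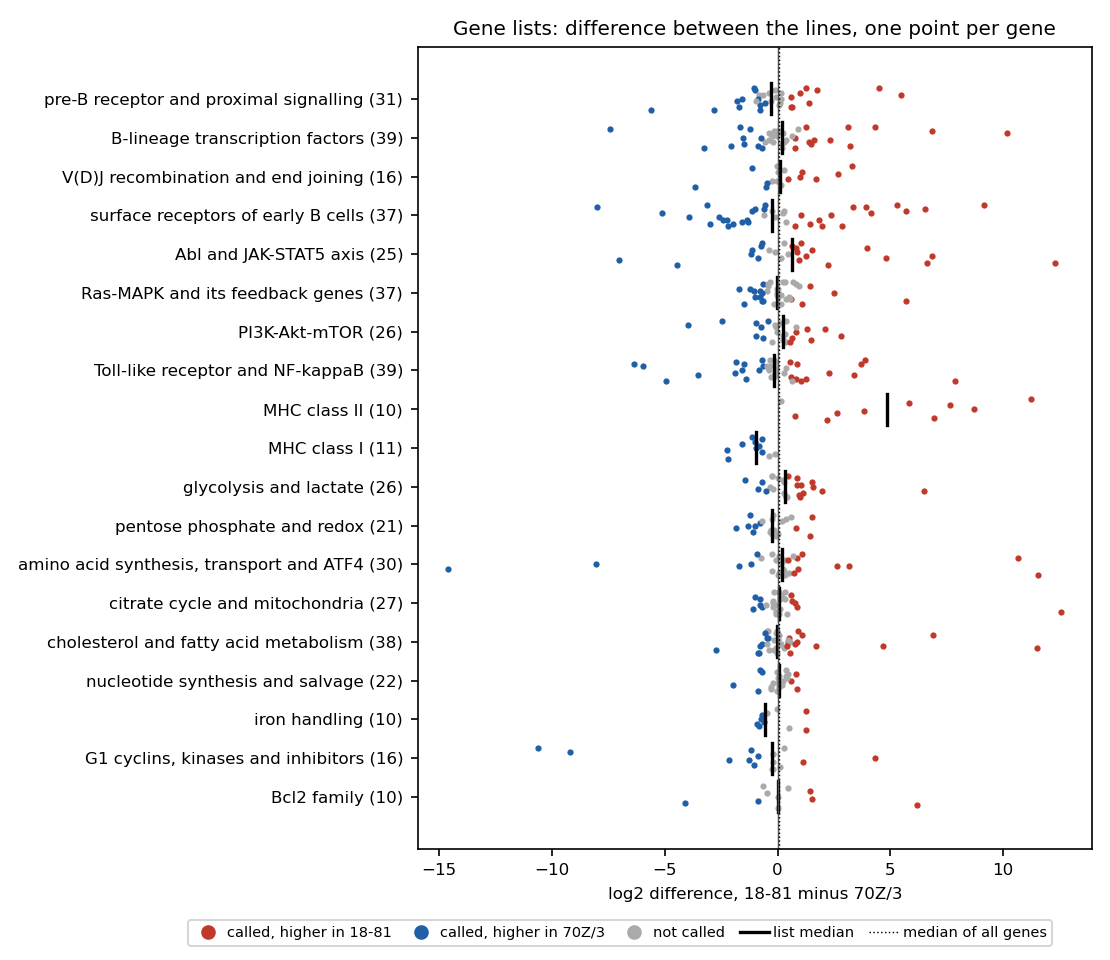
Each point is 1 gene of a list (genes tested in brackets) at its log2 difference, '18-81' minus 70Z/3. Red and blue points passed the adjusted p of 0.05, grey points did not, the thick bar is the list's median and the dotted line the median of all genes, 0.041. MHC class II stands at a median of 4.836 and MHC class I at -0.957, while most metabolic lists lie near 0 with a few distant members. Some genes, several of MHC class II among them, passed the filter only through the line where they are high.

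Most markers of the pre-B list were detected in both lines at the RNA level. Of the 14 pre-B markers on the array, 12 were well above background on all 8 arrays, among them Cd79a, Cd79b, Vpreb1, Igll1, Pax5, Ebf1, Blnk and Il7r. The other 2, the recombinase genes Rag1 and Rag2, were above background on none of the 8 arrays in either of their probes. Neither was the probe of Ighm, a heavy-chain gene outside this list. Whether the lines stand at the pre-B stage was not tested. Between the lines 11 of the 12 differed, 5 higher in '18-81' and 6 higher in 70Z/3, against 45.7% of all genes.

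The surrogate light chain was lower in '18-81'. Igll1 (probe at chr16:16861104-16861163, mm9) had levels of 4.78 and 3.70 with miR-Neg and 3.97 and 3.31 with miR-125b in '18-81', and of 6.69, 7.70, 6.53 and 6.16 in the same order in 70Z/3. All 4 arrays of 70Z/3 were above all 4 of '18-81', a difference of -2.83 ± 0.31 (SE, n = 4 arrays per line, adjusted p = 0.000146 in limma), or 7.10-fold. Vpreb1 had levels of 7.09, 7.28, 7.10 and 7.37 in '18-81' and 8.76, 9.83, 8.35 and 8.80 in 70Z/3, again without overlap, a difference of -1.73 ± 0.22 (limma adjusted p = 0.000387). Vpreb2 differed by -1.57 ± 0.22 and is so close a copy of Vpreb1 that the signal of these probes may be shared. Vpreb3, a partner of the receptor during assembly that does not belong to the surrogate light chain, overlapped between the lines at -0.14 ± 0.15 (limma adjusted p = 0.49).

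The signalling pair moved apart. Cd79b was lower in '18-81', with 6.30, 5.68, 6.37 and 5.70 there and 7.20, 7.39, 6.83 and 6.78 in 70Z/3, a difference of -1.04 ± 0.21 (limma adjusted p = 0.00415). Cd79a had levels of 4.60, 3.03, 4.47 and 2.93 in '18-81' and 3.74, 2.22, 3.86 and 2.86 in 70Z/3, so that the lines overlapped and number 1 exceeded number 2 in each group. With the number as a covariate Cd79a was higher in '18-81' by 0.59 ± 0.17 (limma adjusted p = 0.0255). Leaving out 1 array ended this call for 6 of the 8 arrays: it was 0.55 without 70Z/3 miR-Neg 1, 0.55 without 70Z/3 miR-125b 1, 0.48 without '18-81' miR-Neg 1, 0.61 without '18-81' miR-125b 1, 0.50 without 70Z/3 miR-Neg 2 and 0.56 without '18-81' miR-Neg 2, with limma adjusted p from 0.0561 to 0.0967. Ptprc, the CD45 phosphatase, was higher in '18-81', by 1.41 ± 0.20.

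Over the whole list of the pre-B receptor and its proximal signalling, all 31 genes were tested, 9 were higher in '18-81' and 11 higher in 70Z/3 (64.5% called against 45.7% of all genes), with a median difference of -0.307 against 0.041 for all genes. The kinases Syk and Btk did not pass the test, at -0.96 ± 0.44 (adjusted p = 0.111) and -0.31 ± 0.14 (adjusted p = 0.115). The adaptor Blnk was lower in '18-81', at -0.76 ± 0.16, and Inpp5d, the SHIP phosphatase that removes the PI3-kinase product, by -1.82 ± 0.15. Ptpn6, the SHP-1 phosphatase, was higher in '18-81' by 1.26 ± 0.16. The exchange factors that couple the receptor to Ras were of different kinds in the lines. Rasgrp1 was well above background on all 4 arrays of '18-81' and on none of 70Z/3, at least 13.3-fold higher in '18-81' (limma adjusted p = 9.85e-08). Rasgrp3 ran the other way, above background on 4 arrays of 70Z/3 and 1 of '18-81' (-5.61 ± 0.33). Bank1, a B-cell scaffold, was higher in '18-81' by 4.51 ± 0.17. Such a bound sets the mean of the bright line against that of the dim line. For the dim line, each array's value was first raised to the lowest signal that was above background there. The bound is used wherever no probe of the gene was above background on any array of a line. It describes the probe that stands for the gene, and other probes of a gene can differ in size.

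Terminal transferase and the recombination machinery differed gene by gene. Dntt, which adds untemplated bases at heavy-chain joints, had levels of -2.06, -0.99, -2.12 and -0.64 in '18-81' and 1.33, 1.64, 2.26 and 3.66 in 70Z/3, 12.7-fold lower in '18-81' (-3.67 ± 0.32, limma adjusted p = 3.33e-05). All 4 arrays of 70Z/3 lay above those of '18-81'. Polm, a related polymerase used in end joining, was higher in '18-81' by 2.68 ± 0.22, and so were the end-joining genes Xrcc4 (1.09 ± 0.14) and Lig4 (1.01 ± 0.15). Of 16 genes tested in this list 6 were higher in '18-81' and 4 higher in 70Z/3 (62.5% called against 45.7% of all genes).

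Immunoglobulin probes were few: 14 were found by name and 4 were above background on all arrays of a line. Ighv1-9, a heavy-chain variable gene, was above background only on the arrays of 70Z/3, at least 41.1-fold higher there (limma adjusted p = 1.3e-07). Igh-VJ558, another heavy-chain variable probe, was above background only on those of '18-81', at least 7.18-fold higher. Igkv4-72 did not pass the test (-0.53 ± 0.20, adjusted p = 0.0657 over all probes, and 0.0267 over genes without 70Z/3 miR-125b 2). The probes of Ighm and Igkc were above background on no array. Variable genes have many near-identical copies, so the identity of the segment behind each signal is uncertain.

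**Figure D2:**
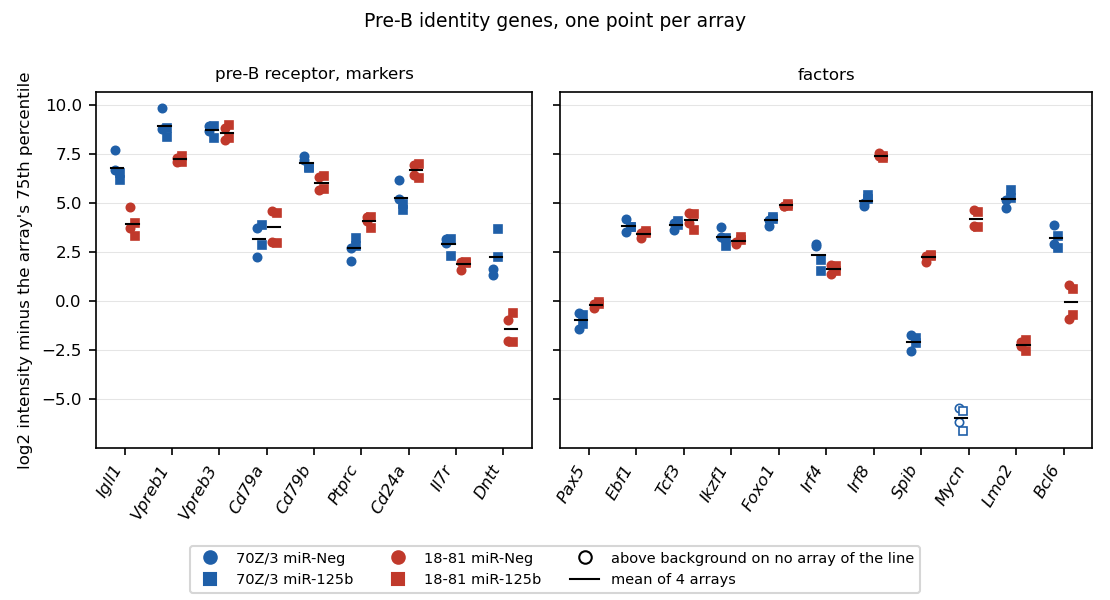
Level on each array, log2 intensity minus the array's 75th percentile, for pre-B genes and factors, with 70Z/3 in blue and '18-81' in red, circles for miR-Neg and squares for miR-125b, and a bar at the mean of 4 arrays. Igll1, Vpreb1, Cd79b, Dntt, Lmo2 and Bcl6 are lower in '18-81' without overlap, Irf8, Spib and Mycn are higher, and Ebf1, Tcf3 and Ikzf1 overlap.

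Ebf1 (-0.38 ± 0.19), Tcf3 (0.22 with adjusted p = 0.3) and Ikzf1 (-0.20 with adjusted p = 0.44) did not pass the test in limma, although the dimmer second probe of Ikzf1 was lower in '18-81', at -0.84 ± 0.16 (limma adjusted p = 0.0036 over all probes). Pax5 was higher in '18-81' by 0.79 ± 0.20 (adjusted p = 0.0122), with arrays that did not overlap. Foxo1, which turns on recombinase and interleukin 7 receptor genes, was higher in '18-81' by 0.76 ± 0.14, and its other probe gave 1.18.

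Mycn (probe at chr12:12943193-12943252, mm9), a MYC-family transcription factor gene, had levels of 3.83, 4.65, 3.79 and 4.52 in '18-81'. In 70Z/3 no array had it above background, so it was at least 410.3-fold higher in '18-81' (limma adjusted p = 4.84e-09). Myc itself was higher by 1.38 ± 0.20. Klf2, a quiescence factor of lymphocytes, was likewise above background only in '18-81', at least 38.4-fold, and Spib, Klf3, Id3, Irf8 and Pou2af1 were higher there by 4.30, 3.20, 3.13, 2.30 and 1.63.

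Lmo2, a progenitor bridging factor known as a leukaemia oncogene, had levels of -2.09, -2.28, -2.01 and -2.55 in '18-81' and 4.76, 5.16, 5.25 and 5.68 in 70Z/3, a difference of -7.44 ± 0.22 (limma adjusted p = 5.57e-08). Every array of 70Z/3 was above every array of '18-81'. Bcl6, the repressor induced by the pre-B receptor, was lower in '18-81', at -3.26 ± 0.20, and Fli1, Myb, Lef1, Sox4 and Runx1 by -2.05, -1.66, -1.55, -1.50 and -1.20, with -2.30 for the second probe of Runx1. Irf4 was lower in '18-81', at -0.71 ± 0.24 (adjusted p = 0.0437) with overlapping arrays. This call ended without 70Z/3 miR-Neg 1 (-0.63), 70Z/3 miR-125b 1 (-0.80), '18-81' miR-Neg 1 (-0.60), 70Z/3 miR-Neg 2 (-0.51) or '18-81' miR-Neg 2 (-0.54), with limma adjusted p from 0.0627 to 0.137. Of 39 factors tested 12 were higher in '18-81' and 10 higher in 70Z/3 (56.4% called against 45.7% of all genes, median 0.176).

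Surface receptors differed broadly, with 31 of 37 tested called (14 higher in '18-81', 17 higher in 70Z/3) against 45.7% of all genes. Among those named below, Cd2, Cxcr5 and Bst1 passed the filter through '18-81' only and Crlf2 through 70Z/3 only. Il7r was 2.02-fold lower in '18-81', with 1.58, 1.97, 1.98 and 1.95 there and 3.14, 2.97, 2.29 and 3.13 in 70Z/3 (-1.01 ± 0.21, limma adjusted p = 0.00527). Crlf2, the receptor chain for the related cytokine TSLP, was above background on 3 arrays of '18-81', where its levels were -2.60, -2.66, -2.33 and -4.60, and at 4.97, 5.25, 4.59 and 4.97 in 70Z/3 (-7.99 ± 0.42). Both receptors of this cytokine family were thus lower in '18-81'. Bst1 and Enpep, the stromal-contact enzymes known as BP-3 and BP-1 that mark early mouse B cells, were higher in '18-81' by 9.18 ± 0.37 and 5.29 ± 0.19, although Bst1 was above background on only 1 array of 70Z/3. Cd2 was above background only in '18-81', at least 25.9-fold, and its dimmer probe differed by 3.63. Cd38, Ccr6, Cxcr5 and Cd53 were higher in '18-81' as well. Cd44 (-5.13 ± 0.18), the integrin chain Itga4 (-3.00 ± 0.13), Cd72 (-3.95 ± 0.23), Spn, which encodes CD43 (-2.23 ± 0.20), Cd5 (-2.40 ± 0.18) and Sdc1 (-3.12 ± 0.18) were higher in 70Z/3. Another probe of Cd44 was above background on no array of '18-81' and differed by -8.13. Cd24a was 2.68-fold higher in '18-81' (1.42 ± 0.31).

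Feedback and survival genes known as STAT5 targets differed strongly, and the SOCS and Pim genes were higher in '18-81'. Cish, which encodes a feedback inhibitor of cytokine receptors (probe at chr9:107204196-107204255, mm9), had levels of 6.29, 6.72, 6.11 and 6.85 in '18-81' and was above background on no array of 70Z/3. It was at least 2013-fold higher in '18-81' (limma adjusted p = 1.18e-08). Socs3 was also above background only in '18-81', at least 32.1-fold. The other SOCS feedback genes were detected in both lines. Socs2 had levels of 5.48, 5.41, 5.50 and 5.44 in '18-81' and 1.57, 1.34, 1.29 and 1.79 in 70Z/3, 15.6-fold higher (3.96 ± 0.16, limma adjusted p = 3.13e-07), and its other probes gave 3.91 and 3.89. Socs1 was higher by 6.84 ± 0.23. No array of 70Z/3 reached those of '18-81' for any of these genes.

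The Pim kinases, survival kinases that cytokine signals induce, followed the same order. Pim1 had levels of 4.04, 2.85, 3.59 and 3.06 in '18-81' and -0.91, -2.32, -1.03 and -1.38 in 70Z/3, a difference of 4.79 ± 0.22 (limma adjusted p = 7.08e-07). Pim2 and Pim3 were higher in '18-81' by 1.53 ± 0.13 and 2.21 ± 0.19, and the cyclin gene Ccnd2 by 1.27 ± 0.24. The transcripts of the factors themselves did not pass the test, Stat5a at -0.12 ± 0.13 (adjusted p = 0.471) and Stat5b at 0.28 ± 0.15 (adjusted p = 0.165). Jak1 and Jak2 were lower in '18-81', at -1.18 ± 0.17 and -0.74 ± 0.15. Abl1, the cellular gene from which v-Abl derives, was lower in '18-81', at -0.70 ± 0.18 (adjusted p = 0.0131) with overlapping arrays, and its second, dimmer probe gave -0.16. Without 70Z/3 miR-Neg 1 it was -0.61 (limma adjusted p = 0.0512). Whether these probes also read the viral gene was not tested. Cbl, a ubiquitin ligase that restrains tyrosine kinases, was higher in '18-81' by 0.60 ± 0.16 (limma adjusted p = 0.0146), a call that ended without 70Z/3 miR-125b 1 (0.57), '18-81' miR-125b 1 (0.57) or '18-81' miR-Neg 2 (0.51), at adjusted p from 0.0542 to 0.0589. Stat4 (-7.02 ± 0.22), above background on 3 arrays of '18-81', and Bcr (-4.44 ± 0.19) were higher in 70Z/3. Of 25 genes tested in this list 13 were higher in '18-81' and 7 higher in 70Z/3 (80% called against 45.7% of all genes). Their median was 0.618. Among the genes named above, Cish and Socs3 passed the filter through '18-81' only and Stat4 through 70Z/3 only.

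The windows around the start sites of Cish and Socs3 are printed because these genes were well above background in '18-81' only and because both windows hold TTCNNNGAA, the letters of the repeat that STAT factors bind (in capitals). Each window runs from 250 bases before to 50 after the start, read 5′ to 3′ along the gene (RefSeq, GRCm38.p6, Cish at chr9:107296409-107296708 on the plus strand and Socs3 at chr11:117969317-117969616 on the minus strand).
Cish: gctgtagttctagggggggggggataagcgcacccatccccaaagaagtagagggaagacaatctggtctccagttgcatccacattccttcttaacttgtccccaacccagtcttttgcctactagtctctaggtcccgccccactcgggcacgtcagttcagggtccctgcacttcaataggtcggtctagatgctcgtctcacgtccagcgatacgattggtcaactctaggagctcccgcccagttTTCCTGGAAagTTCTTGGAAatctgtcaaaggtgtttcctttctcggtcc
Socs3: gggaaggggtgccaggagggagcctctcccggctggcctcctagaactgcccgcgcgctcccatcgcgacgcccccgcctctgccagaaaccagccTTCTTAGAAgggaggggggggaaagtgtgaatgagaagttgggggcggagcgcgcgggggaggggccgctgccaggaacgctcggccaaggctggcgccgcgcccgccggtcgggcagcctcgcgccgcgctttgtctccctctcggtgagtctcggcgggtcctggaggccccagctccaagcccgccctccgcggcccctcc

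In the Cish window the pattern starts at positions 1 and 12 after the start, and in the Socs3 window 154 bases before it. The pattern was searched on both strands and stands in 8.3% of the 32851 windows of this length, and in 2 of the 22 members of the list that have a window. The narrower TTCCNGGAA, a form of the same pattern, stands in 1.15% of all windows and in that of Cish. A match describes letters only.

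Antigen presentation split by class. MHC class II genes, whose products present peptides to helper T cells, were higher in '18-81'. All 9 genes called, of 10 tested, were higher there (24.6% of all genes were), and the list had a median difference of 4.836. Cd74, H2-Aa, H2-DMb2 and Ciita passed the filter through '18-81' only and are part of this count and median. H2-Eb1, H2-DMb1, H2-DMa and H2-Ab1 were above background on all 8 arrays. Cd74, the invariant chain that guides class II molecules (probe at chr18:60972075-60972132, mm9), had levels of 7.95, 7.84, 7.95 and 7.60 in '18-81' and -2.97, -4.44, -3.77 and -2.47 in 70Z/3, where 3 of 4 arrays were above background. The lines differed by 11.24 ± 0.39 (limma adjusted p = 1.36e-07). H2-Eb1 was at 7.55, 7.60, 7.55 and 7.74 in '18-81' and at -1.67, -1.74, -0.87 and -0.12 in 70Z/3, 419-fold apart (8.71 ± 0.26). The 4 arrays of '18-81' stayed far above those of 70Z/3 for both genes.

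H2-Aa differed by 7.64 ± 0.30 and was above background on 1 array of 70Z/3, H2-DMb2 was at least 38.0-fold higher in '18-81', and the peptide loaders H2-DMb1 and H2-DMa were higher by 5.84 ± 0.25 and 3.83 ± 0.21. H2-Ab1 was at 5.75, 5.73, 5.61 and 5.78 in 70Z/3, against 7.80, 7.88, 7.79 and 8.10 in '18-81', a 4.52-fold difference (2.18 ± 0.13, limma adjusted p = 4.06e-06). Ciita, the transactivator of this gene set, was dim: -1.87, -1.86, -1.78 and -1.21 in '18-81' and -3.96, -5.36, -4.26 and -3.67 in 70Z/3, where 1 array was above background (2.63 ± 0.32, limma adjusted p = 0.000271). The remaining member, H2-Oa, named after its value was seen, did not pass the test (0.16, adjusted p = 0.518).

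MHC class I genes ran the other way. Of 11 tested none was higher in '18-81' and 9 were higher in 70Z/3 (21.1% of all genes were), with a median of -0.957. H2-K1 was at 4.96, 5.37, 4.96 and 5.54 in '18-81' and at 7.50, 7.35, 7.14 and 7.71 in 70Z/3, 4.65-fold lower in '18-81' (-2.22 ± 0.16, limma adjusted p = 1.29e-05). Nlrc5, the class I transactivator, was lower, at -2.22 ± 0.19, though its other probe gave -0.01 and did not pass the test. H2-D1 was lower, at -1.58 ± 0.20, as were B2m, the light chain of class I, at -1.16 ± 0.21, and the immunoproteasome subunits Psmb9 and Psmb10, at -0.96 ± 0.16 and -0.99 ± 0.17. H2-K1 and H2-D1 belong to a family of near-identical, polymorphic genes, so their separate values are uncertain.

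**Figure D3:**
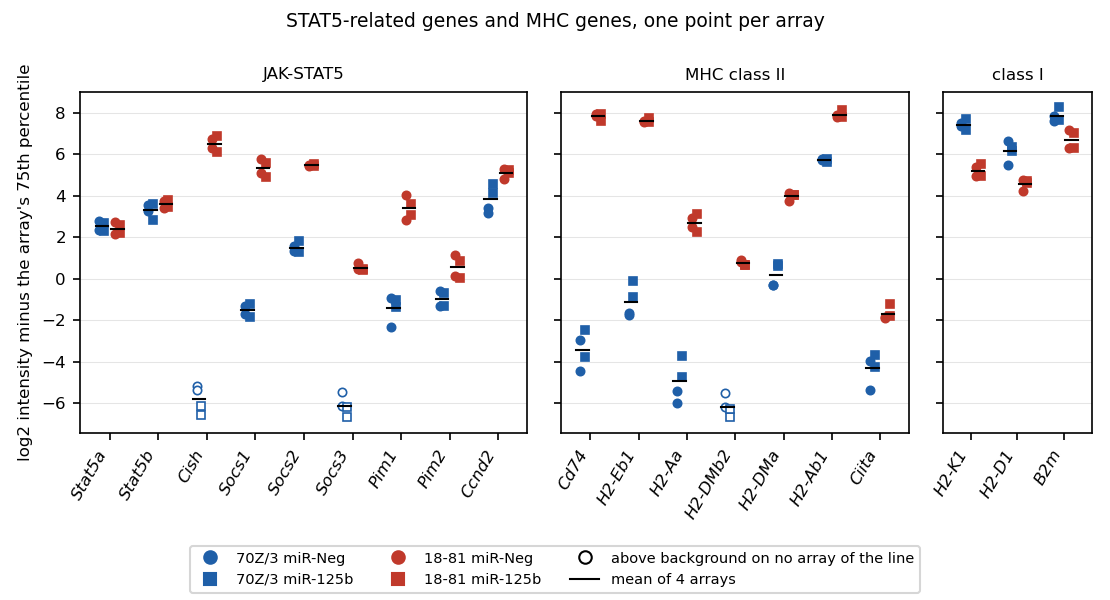
Level on each array, log2 intensity minus the array's 75th percentile, for STAT5-related and MHC genes; colours and shapes are those of the plot of pre-B genes, and open symbols mark a line in which no array was above background. The SOCS and Pim genes and the class II genes are higher in '18-81', Stat5a and Stat5b overlap, and the class I genes are higher in 70Z/3.

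The H2-Aa and H2-Eb1 windows are printed since these 2 chains moved together and both hold CTGATTGG, the Y box that class II promoters share (in capitals), 51 and 62 bases before the start. The windows are from RefSeq, GRCm38.p6, at chr17:34287774-34288073 on the minus strand and chr17:34305617-34305916 on the plus strand.
H2-Aa: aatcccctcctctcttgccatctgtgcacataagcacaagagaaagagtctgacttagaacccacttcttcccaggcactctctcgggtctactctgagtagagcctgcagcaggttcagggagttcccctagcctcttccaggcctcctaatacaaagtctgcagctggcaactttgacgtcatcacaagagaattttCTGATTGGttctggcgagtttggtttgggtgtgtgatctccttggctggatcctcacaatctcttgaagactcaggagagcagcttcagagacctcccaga
H2-Eb1: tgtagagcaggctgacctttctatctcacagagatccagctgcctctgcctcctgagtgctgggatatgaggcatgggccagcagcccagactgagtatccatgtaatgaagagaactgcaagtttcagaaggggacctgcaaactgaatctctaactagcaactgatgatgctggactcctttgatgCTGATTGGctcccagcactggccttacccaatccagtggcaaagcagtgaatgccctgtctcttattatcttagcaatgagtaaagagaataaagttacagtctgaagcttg

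These letters, on either strand, stand in 4.1% of all windows and in 3 of the 7 class II members that have one, H2-Oa among them, which did not differ between the lines by the test.

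Among growth pathways, of 37 Ras and MAPK genes tested 5 were higher in '18-81' and 11 higher in 70Z/3, 43.2% in all against 45.7% of all genes, with a median of -0.007. Nras was higher in '18-81' by 1.42 ± 0.17. The early-response gene Ier3 was above background only in '18-81', at least 19.7-fold, and Jun was higher by 2.51 ± 0.25, while Fos was lower, at -0.99 ± 0.19. The MAPK phosphatases Dusp2, Dusp6 and Dusp10 were lower in '18-81', at -1.47, -0.66 and -1.69. The arrays of Dusp6 overlapped, and its call ended without number as a covariate (limma adjusted p = 0.237). Of 26 PI3-kinase pathway genes 7 were called in each direction (53.8% against 45.7% of all genes). Pik3cg, a catalytic subunit of blood cells, was higher in '18-81' by 2.11 ± 0.31, and Pik3ip1 and Inpp4b, which restrain the pathway, were lower, at -2.46 ± 0.21 and -3.97 ± 0.40, with Inpp4b above background on 1 array of '18-81'. Trib2, a pseudokinase, was higher by 2.79 ± 0.16.

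RNA of the lipopolysaccharide receptor gene Tlr4 and its adaptor gene Myd88 was above background on all 8 arrays. The probe of Cd14, of the same route, was above background on no array, and no response to lipopolysaccharide was measured. Tlr4, the receptor, had levels of 2.16, 2.94, 2.08 and 3.00 in '18-81' and 0.88, 1.98, 0.96 and 1.36 in 70Z/3, 2.38-fold higher in '18-81' (1.25 ± 0.16, limma adjusted p = 0.000389). Its adaptor Myd88 was lower in '18-81', at -1.42 ± 0.20. Tlr2 was above background on the 70Z/3 arrays alone, at least 20.8-fold higher there, and Tlr7, Tlr6 and Irak3 were higher in 70Z/3, at -1.85, -1.59 and -3.55. A second probe of Tlr7 was above background on no array of '18-81' and differed by -7.23. The NF-kB genes Nfkbia (-0.29) and Nfkb2 (-0.11) did not pass the test. Cytokine and chemokine genes split between the lines. Lta, a tumour necrosis factor family cytokine, was at 6.60, 6.35, 6.39 and 6.42 in '18-81' and at -1.56, -1.56, -0.77 and -1.90 in 70Z/3 (7.88 ± 0.22), with Ltb, Bcl3 and Traf1 also higher in '18-81'. The chemokines Ccl3 (-5.97 ± 0.46) and Ccl4, at least 15.8-fold, were higher in 70Z/3. Of 39 genes tested 11 were higher in '18-81' and 12 higher in 70Z/3 (59% called against 45.7% of all genes), with a median of -0.163.

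Metabolism differed most in a few genes that were well above background in 1 line only. Asns, asparagine synthetase (probe at chr6:7625171-7625228, mm9), showed the largest difference of all genes with a symbol in the reference table. It was at 8.13, 8.61, 7.75 and 8.39 in 70Z/3 and above background on no array of '18-81', at least 6316-fold higher in 70Z/3 (limma adjusted p = 2.18e-09). Gls2, the glutaminase of liver type, was also not well above background in '18-81' and at least 72.2-fold higher in 70Z/3. In the other direction Chac1, which breaks down glutathione, was at 5.76, 4.67, 5.99 and 5.06 in '18-81' and not well above background in 70Z/3 (at least 925.1-fold higher in '18-81'), and so were the cationic amino acid transporter Slc7a3 (at least 738.9-fold) and, close to the limit of detection, the cystine transporter Slc7a11 (at least 1.79-fold). Cth, which makes cysteine, was higher in '18-81' by 3.15 ± 0.25. Serine synthesis differed less: Phgdh was higher in '18-81' by 0.85 ± 0.16 and Psat1 did not pass the test (0.49, adjusted p = 0.0811, and 0.0342 without 70Z/3 miR-Neg 1), while its dimmer probe was higher in '18-81' by 0.65 (limma adjusted p = 0.0278 over all probes). Mthfd2 and Trib3 were higher in 70Z/3, at -1.72 and -1.18. Of 30 genes tested 9 were higher in '18-81' and 5 higher in 70Z/3 (46.7% called against 45.7% of all genes, median 0.184).

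The windows of Asns and Chac1 are printed because both hold TGATGNAA, the core letters of CEBP-ATF response elements (in capitals), while the genes were detected in opposite lines. RefSeq places them, in GRCm38.p6, at chr6:7693160-7693459 on the minus strand and chr2:119350992-119351291 on the plus strand, and the letters start 23 and 193 bases before the start, in Chac1 on the opposite strand.
Asns: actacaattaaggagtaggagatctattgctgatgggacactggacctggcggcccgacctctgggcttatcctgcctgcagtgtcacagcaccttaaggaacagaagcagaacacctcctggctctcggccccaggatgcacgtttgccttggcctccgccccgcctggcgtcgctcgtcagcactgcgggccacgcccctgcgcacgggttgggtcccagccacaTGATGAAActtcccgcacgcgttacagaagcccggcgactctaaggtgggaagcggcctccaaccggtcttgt
Chac1: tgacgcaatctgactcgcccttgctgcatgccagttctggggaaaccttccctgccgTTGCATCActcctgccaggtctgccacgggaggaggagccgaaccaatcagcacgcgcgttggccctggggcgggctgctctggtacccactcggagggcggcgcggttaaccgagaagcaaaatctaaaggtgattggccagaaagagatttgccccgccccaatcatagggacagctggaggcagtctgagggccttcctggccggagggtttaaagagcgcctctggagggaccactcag

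The pattern stands in 3.97% of all windows and in 7 of the 24 list members that have one. Of these 7, Chac1 and Slc7a11 were higher in '18-81', Asns, Slc1a4 and Trib3 were higher in 70Z/3, and Got1 and Pycr1, named for the match, did not pass the test. The dimmer probe of Pycr1 was higher in '18-81' by 2.01 ± 0.32 (limma adjusted p = 0.0013 over all probes).

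Isocitrate dehydrogenase was the largest difference among carbon genes. Idh2, the mitochondrial NADP enzyme (probe at chr7:87239736-87239795, mm9), had levels of 6.29, 6.73, 6.45 and 7.20 in '18-81' and was above background on no array of 70Z/3, at least 2232-fold higher in '18-81' (limma adjusted p = 5.57e-08). Idh1, its cytosolic counterpart, ran the other way at -0.99 ± 0.16, with -0.53, -0.57, -0.69 and -0.45 in '18-81' and 0.45, 0.12, 0.72 and 0.44 in 70Z/3. The NAD enzyme subunits Idh3a and Idh3b were higher in '18-81' by 0.77 ± 0.15 and 0.58 ± 0.13. Over the whole citrate cycle list, of 27 tested 5 were called in each direction, 37% in all against 45.7% of all genes, with a median of 0.072.

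Of 26 glycolysis and lactate genes tested 11 were higher in '18-81' and 4 higher in 70Z/3 (57.7% called against 45.7% of all genes), with a median of 0.35. Slc2a1, the glucose transporter GLUT1, had levels of 5.99, 7.06, 5.82 and 7.27 in '18-81' and 4.01, 4.96, 4.14 and 5.10 in 70Z/3, 3.95-fold higher in '18-81' (1.98 ± 0.15, limma adjusted p = 1.22e-05). Number 2 exceeded number 1 in every group, and all '18-81' arrays were above all 70Z/3 arrays. Slc2a3 was higher by 1.55 ± 0.21, Pfkp by 1.57 ± 0.20 (its other probe gave -0.49 and did not pass the test), Pgk1 by 1.14 ± 0.14 and Aldoc, an aldolase of brain type, by 6.48 ± 0.27. The liver-type phosphofructokinase Pfkl was lower, at -1.46 ± 0.22. Hk2 (-0.32, adjusted p = 0.207) and Ldha (0.02, adjusted p = 0.95) did not pass the test, nor did the other probes of Ldha (0.52 and 0.31), and the probe of Ldhb was above background on no array.

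Of 38 cholesterol and fatty acid genes tested 12 were higher in '18-81' and 8 higher in 70Z/3 (52.6% called against 45.7% of all genes), with a median of -0.004. The sterol exporter Abcg1 was higher in '18-81' by 4.66 ± 0.20, and so was the fatty acid carrier Cd36, above background on 1 array of 70Z/3 (6.87 ± 0.56). Cpt1a, the gate of mitochondrial fatty acid oxidation, was lower, at -2.71 ± 0.18.

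Of 10 iron genes 2 were higher in '18-81' and 5 higher in 70Z/3 (70% called against 45.7% of all genes, median -0.541). Those higher in '18-81', Ireb2, which encodes an iron regulatory protein (1.28 ± 0.17), and the second transferrin receptor Tfr2 (1.25 ± 0.24), differed at least 2-fold. None of those higher in 70Z/3 did, among them the ferritin chains Fth1 (-0.93 ± 0.18) and Ftl1 (-0.71 ± 0.14) and the transferrin receptor Tfrc (-0.81 ± 0.19), whose other probes gave -0.58 and -0.002 and did not pass the test. Ferritin genes have many processed copies, so their values are uncertain. The list does not hold Trf, transferrin, which was at least 1139-fold higher in 70Z/3. The peroxidase Gpx1 was 3.55-fold lower in '18-81' (-1.83 ± 0.17) and thioredoxin, Txn1, lower, at -1.31 ± 0.16, while Gclm, a glutathione synthesis subunit, was higher by 1.42 ± 0.18. Of 21 redox and pentose phosphate genes 3 were higher in '18-81' and 6 higher in 70Z/3, 42.9% in all against 45.7% of all genes, and their median of -0.235 became 0.048 with miR-125b arrays only. Among 22 nucleotide synthesis genes 3 were higher in '18-81' and 4 higher in 70Z/3 (31.8% called against 45.7% of all genes). Impdh1, of guanine synthesis, was lower in '18-81', at -1.96 ± 0.17.

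The G1 cyclin gene Ccnd1 was above background only in 70Z/3, and Ccnd2 was above background in both lines. Ccnd1 (probe at chr7:152116202-152116261, mm9) was at 5.15, 4.70, 5.66 and 5.30 in 70Z/3 and above background on no array of '18-81', at least 779.7-fold higher in 70Z/3 (limma adjusted p = 5.27e-09), whereas Ccnd2 was at 5.28, 4.78, 5.22 and 5.09 in '18-81' and 3.42, 3.16, 4.13 and 4.58 in 70Z/3. Cdkn1a, the p21 inhibitor that p53 induces, was likewise above background on no array of '18-81', at least 138.9-fold higher in 70Z/3, and its dimmer probe differed by -5.08. Cdkn2a, the p16 and p19Arf locus, was at 6.75, 7.69, 6.80 and 7.86 in '18-81' and at 2.82, 2.14, 2.86 and 4.08 in 70Z/3, 19.7-fold higher in '18-81' (4.30 ± 0.34, limma adjusted p = 1.88e-05), and its other probe gave 4.58. All '18-81' arrays were above those of 70Z/3 for Cdkn2a and below for Ccnd1 and Cdkn1a. Trp53 had levels of 2.40, 0.69, 2.27 and -0.35 in '18-81' and 2.93, 1.50, 3.25 and 2.45 in 70Z/3, which overlap, and was lower in '18-81', at -1.28 ± 0.34 (limma adjusted p = 0.0172). The call of Trp53 ended without number as a covariate (limma adjusted p = 0.166). Cdk6 was lower in '18-81', at -2.17 ± 0.15. Among 16 G1 genes tested 2 were higher in '18-81' and 7 higher in 70Z/3 (56.2% called against 45.7% of all genes). Among 10 Bcl2 family genes 50% were called, against 45.7% of all genes. Bcl2 (1.53 ± 0.18), Bcl2l11, which encodes BIM (1.43 ± 0.16), and Bcl2l2, at least 28.4-fold, were higher in '18-81'. Pmaip1, which encodes NOXA (-4.11 ± 0.23), and Bak1 (-0.86 ± 0.15) were higher in 70Z/3.

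**Figure D4:**
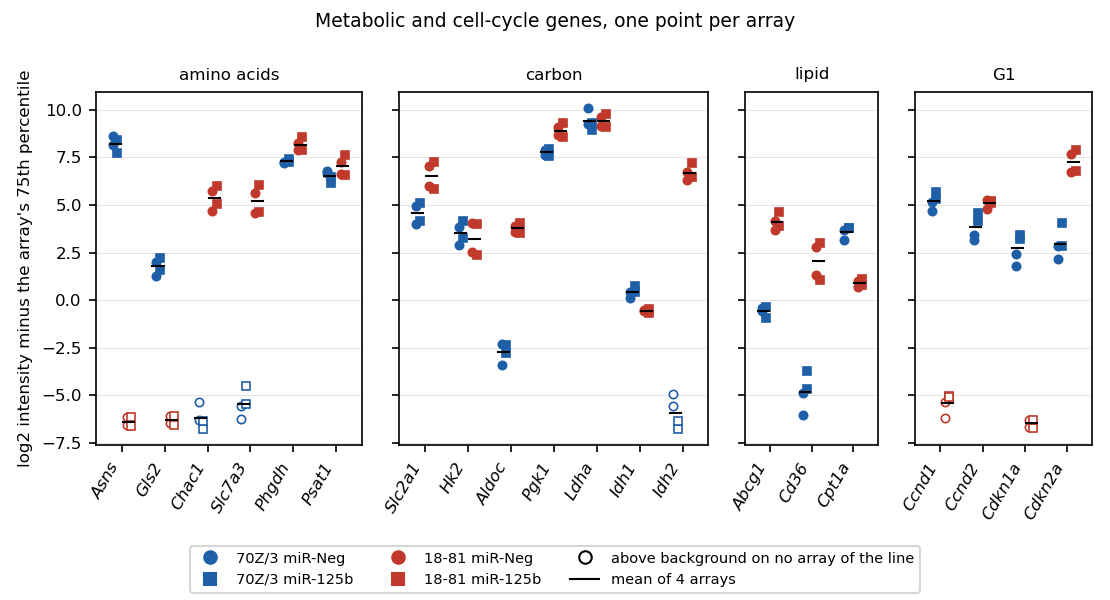
Level on each array, log2 intensity minus the array's 75th percentile, for metabolic and G1 genes; colours and shapes are those of the plot of pre-B genes, and open symbols mark a line in which no array was above background. Asns, Gls2, Ccnd1 and Cdkn1a are not well above background in '18-81', and Chac1, Slc7a3 and Idh2 are not well above background in 70Z/3.

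Genes that mark other lineages differed between the lines as well. Of 17 T-cell markers 12 were tested, 7 were higher in 70Z/3 (21.1% of all genes were) and 2 in '18-81' (24.6%), although 4 of these 9 passed the filter through 1 line only. Of the 8 above background on all 8 arrays 5 were higher in 70Z/3. The summed level of the 12, in units of the array's 75th percentile, ran from 66.3 to 187 on the 70Z/3 arrays and from 19 to 31.6 on those of '18-81'. This sum includes the 4 that passed the filter through 1 line only. It also includes Lck, which on 70Z/3 miR-Neg 2 was at 6.79, against 4.70 to 5.05 on the other 70Z/3 arrays. Tcf7 and Gata3, T-lineage factors, were above background only in 70Z/3 (at least 44.8-fold and 12.4-fold, with -4.62 for the dimmer probe of Tcf7), Cd28 and Lck were higher there, at -6.39 and -2.29, and Cd3g was above background only in '18-81' (at least 7.15-fold). Cd8a, Bcl11b and Thy1 were above background on no array. The natural killer receptor Klrd1 was at least 130.0-fold higher in 70Z/3 and belongs to a family of close copies. Of 8 myeloid markers tested 3 were higher in '18-81', Fcer1g (6.22 ± 0.17), Csf2ra (4.76 ± 0.14) and Ctss (0.83 ± 0.23), and none higher in 70Z/3 (37.5% called against 45.7% of all genes). The call of Ctss, whose arrays overlapped, ended without 70Z/3 miR-125b 1 (0.82), '18-81' miR-125b 1 (0.83) or '18-81' miR-125b 2 (0.61), at limma adjusted p from 0.0503 to 0.0575. Among those that did not pass the filter, and named after their values were seen, Lyz1 was above background on 3 arrays of 70Z/3 and Mpo and Lyz2 on 2 each, and on none of '18-81', with Adgre1, Cd14, Cebpa and Cebpb above background on no array. The erythroid factors Tal1, at least 55.4-fold, and Gata1, at least 2.06-fold, and the receptor Epor, at least 18.9-fold, were above background only in '18-81', while Klf1, the other member tested, was higher in 70Z/3, at -0.94 ± 0.17. Gp9, of megakaryocytes, not tested and named after its value was seen, was above background on 3 arrays of 70Z/3 and none of '18-81'. Of 7 plasma cell markers tested 2 were higher in '18-81' and 3 higher in 70Z/3 (71.4% called against 45.7% of all genes). Jchain, above background only in '18-81' (at least 415.3-fold), and Derl3 (1.58 ± 0.35) were higher in '18-81'. Sdc1 (-3.12 ± 0.18), Prdm1 (-0.75 ± 0.15) and Irf4 were higher in 70Z/3. Sparc, a matrix gene of stroma, was at -0.34 and 0.70 with miR-Neg and 4.26 and 5.39 with miR-125b in 70Z/3 and between -3.25 and -2.54 in '18-81'. In the same units the summed markers tested ran, in '18-81' and then 70Z/3, from 131 to 189 and from 95.5 to 143 for 8 myeloid genes, from 122 to 175 and from 74.8 to 139 for 7 plasma cell genes, and from 18.2 to 67.9 and from 45.2 to 80.4 for 2 stromal genes. Jchain, which passed the filter through '18-81' only, is in the plasma cell sum. No sum is given for the erythroid and natural killer lists, where 3 of 4 and 2 of 4 genes passed through 1 line only. The defining genes Alas2, Pf4, Ncr1, Gzma, Gzmb, Col3a1 and Pdgfrb were above background on no array. The part of other cells in the differences between the lines was not tested. Xist, the RNA of the inactive X, was above background only in 70Z/3 (at least 13.7-fold), and Kdm5d, Eif2s3y, Ddx3y and Uty of the Y chromosome on no array.

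Many genes were well above background in 1 line only. Of the called genes 706 were above background on no array of 70Z/3 in any probe and 541 on none of '18-81', and the bound was at least 10-fold for 303 and 310 of them and at least 100-fold for 71 and 61. The 15 largest differences towards '18-81' among genes with a symbol in the table included Idh2, Gtsf1, Cish, Wfdc15a, Afp, Chac1, Emilin2, Cd74, Arl14epl, Prps1, Nedd4, Slc7a3, Hacd1 and Jchain. Gtsf1, a germline gene of the piRNA pathway, was at least 1694-fold higher in '18-81', Afp, the alpha-fetoprotein of fetal liver, at least 961.8-fold, and Prps1, which makes phosphoribosyl pyrophosphate, at least 1213-fold. The 15 largest towards 70Z/3 were Asns, Ppic, Ramp1, Egfl7, Plpp2, Rhoj, Trf, Ydjc, Skap1, Ccnd1, Ugt1a6b, Uaca, Pepd, Hoxb8 and Emb. Ppic, a cyclophilin, was at least 2330-fold higher in 70Z/3, Egfl7, a vascular growth factor, at least 1319-fold, Trf, transferrin, at least 1139-fold, and Hoxb8, a homeobox gene, at least 302.4-fold. Ramp1 had no bound, since another of its probes was above background in both lines and differed by -3.56, and its remaining probe differed by -5.66. The dimmer probe of Nedd4 differed by 3.45. Asns, Idh2, Cish, Chac1, Slc7a3, Ccnd1 and Prps1 each rest on 1 probe, so their bounds describe that probe.

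The difference also followed chromosomes, a pattern chosen after the values were seen. Relative to the median of all genes, the 1033 genes on chromosome 1 had a median difference of -0.335 and the 840 on chromosome 6 of -0.278, while the 832 on chromosome 3 had 0.213 and the 442 on chromosome 18 had 0.335. The other 16 chromosomes, X included, lay between -0.067 and 0.07. Each pairing of arrays with the same duplex and number gave the same picture: from -0.37 to -0.318 on chromosome 1, from -0.349 to -0.228 on chromosome 6, from 0.212 to 0.263 on chromosome 3 and from 0.305 to 0.407 on chromosome 18, against -0.096 to 0.11 on all other chromosomes. On chromosome 1, 389 genes were higher in 70Z/3 and 156 in '18-81', and on chromosome 18, 58 and 190. In stretches of 20 Mb along mm9 the median was below 0 in 9 of 10 stretches of chromosome 1 and 8 of 8 of chromosome 6, and above 0 in 8 of 8 of chromosome 3 and 5 of 5 of chromosome 18. The exception on chromosome 1, from 100 to 120 Mb, held 29 genes at 0.319. With genes above background on all 8 arrays the medians were -0.33, -0.266, 0.227 and 0.376 for chromosomes 1, 6, 3 and 18. Over all 23 alternatives the medians kept their sign, but in the same order came as near to 0 as -0.073, -0.067, 0.055 and 0.142. Genes share arrays and neighbours, so these medians are a description without a test, and copy number was not measured.

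**Figure D5:**
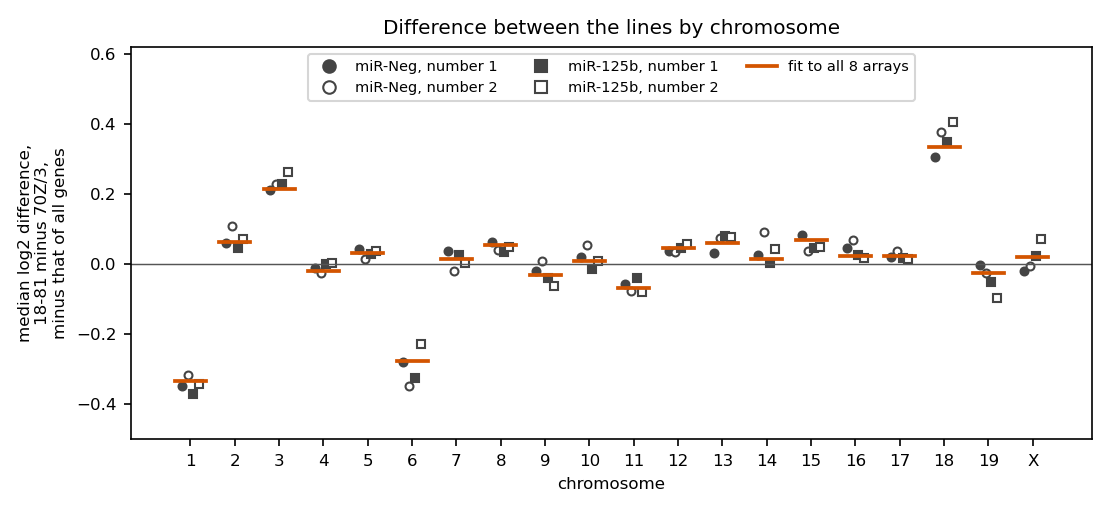
Median log2 difference ('18-81' minus 70Z/3) of the genes on each chromosome, minus that of all genes. Points are the 4 pairs of arrays with the same duplex and number and bars the fit to all 8 arrays. Chromosomes 1 and 6 lie below -0.2 and chromosomes 3 and 18 above 0.2 in every pair, and the other chromosomes stay between -0.096 and 0.11.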

How the data were processed

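RNA of each culture was hybridised to a 1-colour Agilent array, and spots were read with Agilent Feature Extraction 10.7.3.1 per the file headers. The deposited processed intensity was background-subtracted and detrended within each array per the file headers, and not normalized between arrays. The authors' deposited value table of intensity, for which no label or header states a between-array method, served as an alternative. Control and outlier spots were left out and spots of a probe averaged. Each array's log2 intensity was centred on its 75th percentile, which lay between 335.2 and 712.7 intensity units, with 38% to 45.1% of probes well above background. The brightest probe that passed the background filter stood for a gene. Of 17419 genes tested, 13059 had a symbol in the RefSeq table and the others kept the name in the file.

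limma 3.58.1 (R 4.3.3) fitted line, duplex and number, with Benjamini-Hochberg adjustment at 0.05. The fit was tested on simulated data. Samples with the same number deviated together in all 6 pairs of groups (r from 0.395 to 0.687), and the number was kept as a covariate. Number 1 arrays lay in slide row 1 and number 2 arrays in row 2. Experiment and slide row therefore cannot be told apart. All arrays share 1 slide and 1 scan date. The number of arrays limits the precision. Named genes were the 15 largest differences in each direction, up to 8 list members per direction by adjusted p, immunoglobulin probes and a set of genes always named. The members and lists were chosen with earlier results of these data known. Alternatives changed the background correction, scaling, filter, probe rule, covariates and arrays used. A few genes that the rule would name are not reported here.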

Additional observations from a re-analysis of the deposited data

Results flagged for a closer look

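In 13 of 344 sets of 4 arrays of a line, over the genes named, 1 array lay far from the other 3: its gap to the nearest, divided by the whole range, was above Dixon's 95% critical value. Chance flags about 1 in 20 such sets. Ciita in '18-81' was highest on miR-125b 2, at -1.21 against -1.87 to -1.78 (gap over range 0.865). Dusp2 in 70Z/3 was highest on miR-Neg 2, at 7.04 against 6.53 to 6.59 (gap over range 0.88). Il7r in '18-81' was lowest on miR-Neg 1, at 1.58 against 1.95 to 1.98 (gap over range 0.926). Itga4 in '18-81' was highest on miR-125b 1, at 1.50 against 1.21 to 1.25 (gap over range 0.872). Lck in 70Z/3 was highest on miR-Neg 2, at 6.79 against 4.70 to 5.05 (gap over range 0.833). Mthfd2 in 70Z/3 was lowest on miR-Neg 2, at 4.64 against 4.99 to 5.03 (gap over range 0.906). Myd88 in 70Z/3 was lowest on miR-125b 2, at 2.82 against 3.32 to 3.39 (gap over range 0.871). Pik3ip1 in '18-81' was highest on miR-125b 2, at 0.20 against 0.02 to 0.04 (gap over range 0.897). Psmb9 in '18-81' was lowest on miR-Neg 2, at 4.74 against 5.01 to 5.06 (gap over range 0.837). Pycr1 in 70Z/3 was lowest on miR-Neg 2, at -0.29 against 1.72 to 1.90 (gap over range 0.918). Socs3 in '18-81' was highest on miR-Neg 1, at 0.74 against 0.43 to 0.47 (gap over range 0.852). Stat4 in 70Z/3 was lowest on miR-Neg 2, at 2.52 against 3.61 to 3.81 (gap over range 0.845). Xist in 70Z/3 was lowest on miR-Neg 2, at -2.58 against -0.16 to 0.14 (gap over range 0.888).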

How the results depend on the processing

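The lines lay in different slide columns and each is 1 culture, so column and line cannot be told apart, and values near background set only bounds. Of the 184 named genes that passed the test, all 184 kept their direction under the 23 alternatives that tested them. Genes called between the lines numbered 6487 to 8244 when 1 array was left out, 4682 with miR-Neg arrays only and 4292 with number 2 arrays only, which hold fewer samples. Without the replicate block 5882 genes were called, and 6 named genes lost their call: Abl1, Cd79a, Ctss, Dusp6, Irf4 and Trp53. With genes above background on all 8 arrays 2396 were called at least 2-fold. The interaction gave 0 to 6 genes when 1 array was left out: 1 without 70Z/3 miR-Neg 2, 1 without '18-81' miR-Neg 2 and 6 without '18-81' miR-125b 2. The median of all genes, 0.041, became 0.157 with miR-125b arrays only and -0.232 with no filter. List medians changed sign for myeloid markers (-0.103 with no filter, -0.152 with the filter on both arrays of a group), erythroid markers (-0.174 with no filter, -0.94 with the filter on all 8 arrays), plasma cell markers (-0.157 with that filter), the Toll-like receptor list (0.011 with miR-Neg arrays only) and the pentose phosphate list (0.048 with miR-125b arrays only), and the cause was not tested. The chromosome medians, alternatives chosen after seeing the data, ran from -0.374 to -0.073 (chromosome 1), from -0.304 to -0.067 (chromosome 6), from 0.055 to 0.232 (chromosome 3) and from 0.142 to 0.39 (chromosome 18).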
